A study of Homo sapiens with 8 samples.

Results

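The genes described here were 40 genes of mitosis and the mitotic spindle, a list of names chosen by their known roles. The list was chosen with earlier results of these data known. All 40 were found among the 20503 named genes of the arrays, and all 40 lay well above background in every group and so were among the 15552 genes tested. RNA of 2 human epithelial ovarian cancer cell lines, MDAH and SKOV3, had been measured on 8 single-colour arrays in 4 groups of 2: unsilenced MDAH cells, MDAH cells silenced for SFPQ, unsilenced SKOV3 cells and SKOV3 cells silenced for SFPQ. SFPQ is a nuclear RNA- and DNA-binding protein that takes part in splicing and transcription. In each line 1 silenced array held cells that received the short hairpin RNA sh-SFPQ#2 and the other held cells that received sh-SFPQ#3, so the arrays of a silenced group differed in their hairpin. The labels name the controls as cells with a control hairpin, whereas the study's supplementary methods list 1 parental and 1 sh-ctrl sample a line, so the controls are called unsilenced here. No drug is named for any of these samples. Each of MDAH and SKOV3 is a single established line. No label says that the arrays came from separate cultures, so p-values measure the spread between these arrays. Within a group that spread includes the hairpin difference and any difference between the controls, and the rest may be technical.

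Cells enter mitosis when cyclin A2 and the B-type cyclins activate CDK1, which CDC25 phosphatases help to switch on. Aurora and Polo kinases then build the spindle, the checkpoint proteins hold back anaphase until each kinetochore is attached, and CDC20 with the anaphase-promoting complex starts the destruction of securin and the cyclins. The mRNAs of most of these genes are low in resting and G1 cells and peak in G2 and M phase. Their level in a culture is therefore widely used as a readout of how many cells divide. In these bulk samples a change in the number of dividing cells and one in mRNA per dividing cell cannot be told apart. The study reported slower growth of both MDAH and SKOV3 cells after transient SFPQ knock-down, in a separate growth assay. How that growth relates to the levels on these arrays was not tested.

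Genes of this kind often share 2 short promoter elements, a CCAAT box, read by NF-Y, and the cell cycle genes homology region (CHR), read by the MuvB complexes. Promoter sequences from RefSeq (GRCh38.p14; 250 bases before to 50 bases after the gene start) were at hand for 35 of the 40 genes, and not for BUB3, TPX2, TTK, BIRC5 and AURKA. The letters TTTGAA, searched on both strands as the core of the CHR, were present in 25 of the 35 (71.4%), against 13.9% of the 12071 tested genes with a promoter entry. The letters CCAAT, also on both strands, were present in 30 of the 35 (85.7%), against 42.7%. With the 250 bases before the start alone, TTTGAA was present in 19 of the 35 (54.3%), against 12.2%. The 120 bases before the start follow for the members that stood at the ends of either line or had the smallest adjusted p in SKOV3 cells or in the comparison of the lines. Capitals mark the searched letters on either strand; a match is a description of these letters and not a bound site. In CDCA3 the TTTGAA letters begin 3 bases before the start and run past the end of the stretch shown.
PLK1 (chr16:23678769-23678888, plus strand, highest change in MDAH cells): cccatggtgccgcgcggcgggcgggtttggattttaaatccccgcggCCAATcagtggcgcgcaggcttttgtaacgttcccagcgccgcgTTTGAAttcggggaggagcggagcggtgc
CCNB2 (chr15:59105026-59105145, plus strand, lowest change in MDAH cells): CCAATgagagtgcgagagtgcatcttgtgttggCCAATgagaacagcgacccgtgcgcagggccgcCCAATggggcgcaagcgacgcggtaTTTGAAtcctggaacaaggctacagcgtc
ESPL1 (chr12:53268179-53268298, plus strand, highest change in SKOV3 cells): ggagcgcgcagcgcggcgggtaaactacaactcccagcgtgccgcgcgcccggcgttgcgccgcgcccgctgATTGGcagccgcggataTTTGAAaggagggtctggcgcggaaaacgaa
CDCA3 (chr12:6851287-6851406, minus strand, lowest change in SKOV3 cells): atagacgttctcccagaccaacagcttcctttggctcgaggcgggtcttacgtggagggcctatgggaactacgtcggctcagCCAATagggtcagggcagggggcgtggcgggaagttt
CENPA (chr2:26785936-26786055, plus strand, smallest adjusted p for the difference between the lines): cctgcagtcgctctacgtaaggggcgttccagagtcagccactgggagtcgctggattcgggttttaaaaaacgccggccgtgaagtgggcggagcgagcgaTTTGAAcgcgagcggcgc
BUB1 (chr2:110678064-110678183, minus strand, smallest adjusted p in SKOV3 cells): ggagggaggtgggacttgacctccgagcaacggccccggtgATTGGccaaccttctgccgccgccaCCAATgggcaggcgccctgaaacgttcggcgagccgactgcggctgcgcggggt
PLK1 and CCNB2, at opposite ends in MDAH cells, both carried TTTGAA 29 bases before the start, and ESPL1 carried it at 31 bases. The members with and without the letters lay close together: the median log2 change on silencing was 0.35 in MDAH and -0.49 in SKOV3 cells for the 25 with TTTGAA, and 0.47 and -0.48 for the 10 without.

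All arrays shared 1 slide and 1 scan, each at its own position, so an effect of position cannot be told apart from one of group. Between 47.7% and 57.0% of the probes of an array were well above background, and none was saturated. The 75th percentile of the signal ranged from 387 to 496 on 7 arrays and was 244 on MDAH sh-SFPQ#3. SFPQ itself fell by 1.502 on the log2 scale in MDAH cells (SE 0.23, limma adjusted p = 0.0328) and by 2.01 in SKOV3 cells (SE 0.23, adjusted p = 0.0299), and it was lower on each silenced array than on both controls of its line. The epithelial markers KRT7, KRT8, KRT18, KRT19 and EPCAM were well above background in every group, whereas CDH1 was not in the SKOV3 controls. Of the markers of other cell types, CD3E and COL3A1 were not well above background on any array.

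In MDAH cells most of the mitotic genes lay higher after SFPQ silencing, though none passed the test alone. The log2 change, silenced minus unsilenced, was above 0 for 39 of the 40 genes, with a median of 0.43, beside a median of 0.10 over all genes tested. The kinase PLK1 was 1.90 times, the separase ESPL1 1.78 times and the anaphase activator CDC20 1.68 times its unsilenced level. The exception was the cyclin CCNB2, at -0.06, which was above 0 with each array centred on its median. With quantile normalization 37 of the 40 genes remained above 0, and BUB3, NDC80 and CCNB2 did not. Both silenced arrays lay above both controls for 33 of the 40 genes and overlapped them for CCNB2, CDK1, BUB3, CENPE, NDC80, HMMR and MKI67, and with quantile normalization they lay above for 26. Over all genes tested, 35.6% had both silenced MDAH arrays above both controls, a share not counted with quantile normalization. No single gene passed an adjusted p of 0.05 in limma, where 2.03% of all genes did. At an unadjusted p under 0.05 there were 16 of the 40, beside 23.1% of all genes. The smallest adjusted p values were 0.0826 for PLK1 and 0.0952 for CENPA.

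In SKOV3 cells most of them lay lower after silencing, again with none past the test. The log2 change was below 0 for 38 of the 40 genes, with a median of -0.48, beside -0.04 over all genes tested. CDCA3, a trigger of mitotic entry, was at 0.528 times, the checkpoint kinase BUB1 at 0.552 times and the cytokinesis motor KIF20A at 0.560 times the unsilenced level. The exceptions were the phosphatase CDC25B at 0.04 and ESPL1 at 0.05, and with quantile normalization also the motor KIF2C. Both silenced arrays lay below both controls for 38 of the 40 genes and overlapped them for CDC25B and ESPL1, and with quantile normalization they lay below for 35. Over all genes tested, 32.1% had both silenced SKOV3 arrays below both controls, a share not counted with quantile normalization. No gene passed an adjusted p of 0.05 in limma, where 0.997% of all genes did. At an unadjusted p under 0.05 there were 26 of the 40, beside 19.5% of all genes. The smallest adjusted p values were 0.0719 for BUB1 and 0.0939 for CDCA3.

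**Figure D1:**
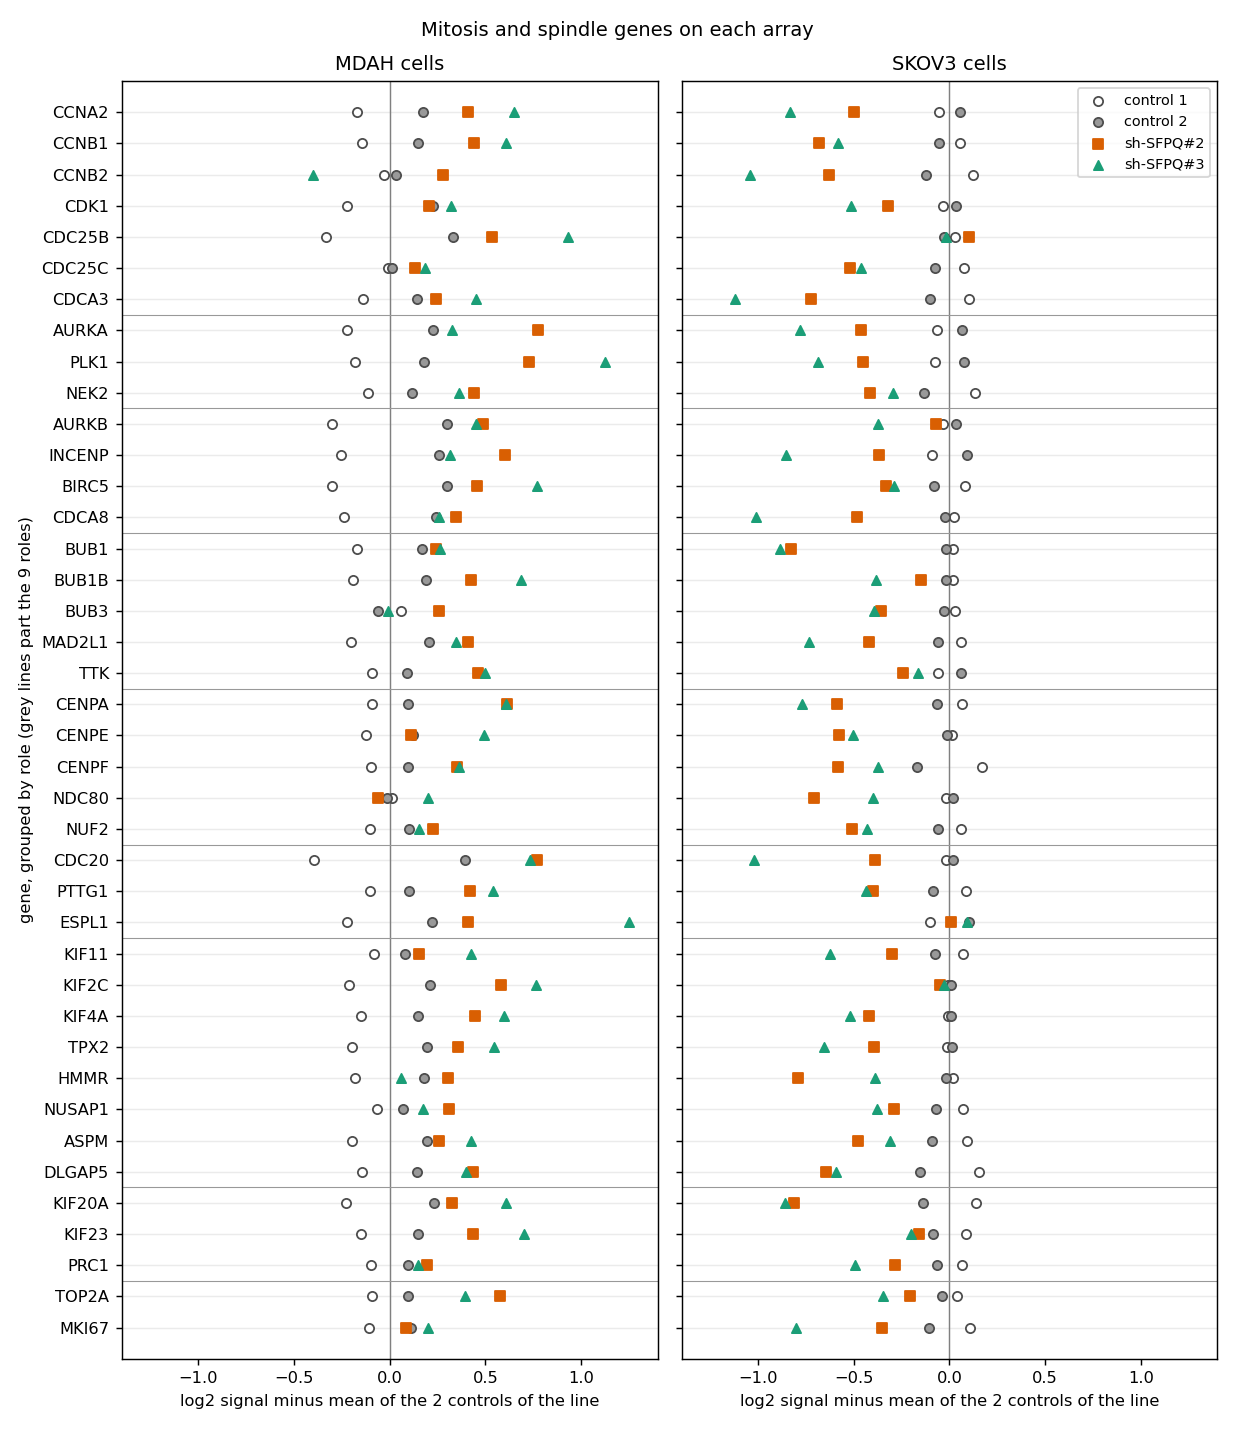
Log2 signal of each of the 40 genes on each array, minus the mean of the 2 controls of its line (x axis), with genes grouped by role (y axis), for MDAH cells on the left and SKOV3 cells on the right. Circles are the controls, squares sh-SFPQ#2 and triangles sh-SFPQ#3. The silenced arrays lie to the right of both controls for 33 genes in MDAH cells, beside 35.6% of all genes tested. They lie to the left for 38 in SKOV3 cells, beside 32.1% of all genes tested. With quantile normalization the counts are 26 and 35, and the shares of all genes were not counted there. MDAH control 1 lies left of control 2 for 38 of the 40 genes.

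The values below are log2 signals over the 75th percentile of the array, given as control 1, control 2, sh-SFPQ#2 and sh-SFPQ#3. They compare arrays for 1 gene and do not rank transcripts, since probes differ in brightness. The standard errors are those of limma, with 2 arrays in each group.

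Of the 7 genes of mitotic entry, CCNB2, a cyclin that activates CDK1, measured 4.80, 4.86, 5.11 and 4.43 in MDAH cells and 5.46, 5.21, 4.71 and 4.30 in SKOV3 cells. In MDAH cells the hairpins lay on opposite sides of the controls, and in SKOV3 cells both lay below them. Its log2 change was -0.06 (SE 0.26, adjusted p = 0.908) in MDAH and -0.84 (SE 0.26, adjusted p = 0.165) in SKOV3 cells. CDC25B, which removes the inhibitory phosphates of CDK1, measured 2.94, 3.60, 3.80 and 4.20 in MDAH and 5.62, 5.56, 5.69 and 5.57 in SKOV3 cells. It was thus higher on both silenced MDAH arrays, by 0.73 (SE 0.25, adjusted p = 0.159), while the SKOV3 arrays overlapped. CDC25C, a related phosphatase and the member with the dimmest probe, measured 0.75, 0.77, 0.90 and 0.95 in MDAH and 0.60, 0.45, 0.01 and 0.06 in SKOV3 cells. CDCA3, part of the ligase that clears the CDK1 inhibitor WEE1, measured 3.003, 3.28, 3.38 and 3.59 in MDAH and 3.45, 3.24, 2.62 and 2.22 in SKOV3 cells. Its groups did not overlap in either line, and its SKOV3 change of -0.92 (SE 0.20) was the lowest of the 40. The medians of the 7 genes were 0.35 in MDAH and -0.63 in SKOV3 cells, and CCNA2, CCNB1 and CDK1 lay between 0.26 and 0.53 in MDAH and between -0.67 and -0.42 in SKOV3 cells.

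All 3 mitotic kinases were higher in silenced MDAH and lower in silenced SKOV3 cells, with both silenced arrays outside both controls. PLK1, needed for mitotic entry, centrosome maturation and cytokinesis, measured 1.89, 2.25, 2.80 and 3.20 in MDAH and 2.52, 2.67, 2.14 and 1.91 in SKOV3 cells. Its MDAH change of 0.93 (SE 0.21) was the highest of the 40, and its SKOV3 change was -0.57 (SE 0.21, adjusted p = 0.212). NEK2, a kinase of centrosome separation, measured 1.31, 1.53, 1.86 and 1.78 in MDAH and 0.96, 0.69, 0.41 and 0.53 in SKOV3 cells. AURKA, the spindle pole kinase, had log2 changes of 0.55 and -0.62.

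The chromosomal passenger complex, which corrects wrong kinetochore attachments and drives cytokinesis, had medians of 0.46 in MDAH and -0.46 in SKOV3 cells over its 4 genes. INCENP, its scaffold, measured 1.49, 2.003, 2.35 and 2.06 in MDAH and 2.44, 2.62, 2.16 and 1.68 in SKOV3 cells. BIRC5, or survivin, measured 5.27, 5.88, 6.03 and 6.34 in MDAH and 7.10, 6.93, 6.68 and 6.73 in SKOV3 cells. For both genes MDAH control 2 lay nearer to the silenced arrays than to control 1. AURKB, the kinase of the complex, and CDCA8, or borealin, had MDAH changes of 0.47 and 0.30 and SKOV3 changes of -0.22 and -0.75.

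Among the 5 spindle checkpoint genes the medians were 0.38 in MDAH and -0.38 in SKOV3 cells. BUB1, a checkpoint kinase of the kinetochore, measured 3.50, 3.84, 3.91 and 3.93 in MDAH and 3.24, 3.19, 2.38 and 2.33 in SKOV3 cells. In SKOV3 cells the controls lay close together and so did the silenced arrays, and the change of -0.86 (SE 0.16) had the smallest adjusted p of the members in that line. BUB3, its binding partner, measured 3.64, 3.52, 3.84 and 3.57 in MDAH and 4.52, 4.46, 4.13 and 4.09 in SKOV3 cells. Its MDAH arrays overlapped, and its change there of 0.12 (SE 0.15, limma adjusted p = 0.656) was 0.00 with quantile normalization. The other, dimmer probe of BUB3 measured 3.07, 3.31, 3.71 and 3.37 in MDAH cells. By that probe the MDAH change was 0.35, with both silenced arrays above both controls.

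The 5 kinetochore genes had medians of 0.30 in MDAH and -0.54 in SKOV3 cells, and in SKOV3 cells all 5 lay between -0.68 and -0.47. CENPA, the centromeric histone, measured 1.49, 1.68, 2.19 and 2.19 in MDAH and 2.66, 2.54, 2.01 and 1.83 in SKOV3 cells; it was chosen after its values were seen, for its adjusted p. Both hairpins gave nearly the same MDAH level for this gene, above both controls. CENPF, a large kinetochore protein of G2 and M phase with one of the brightest probes, measured 5.55, 5.75, 6.002 and 6.01 in MDAH and 6.12, 5.79, 5.37 and 5.58 in SKOV3 cells. NDC80, which binds the microtubule, measured 4.20, 4.18, 4.13 and 4.39 in MDAH and 5.22, 5.26, 4.53 and 4.84 in SKOV3 cells. Its MDAH change was 0.07 (SE 0.17, adjusted p = 0.832), and it was below 0 with quantile normalization.

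The 3 genes of anaphase onset had the highest MDAH median of the roles, 0.75, and a SKOV3 median of -0.42. CDC20, which activates the anaphase-promoting complex, measured 3.21, 4.004, 4.38 and 4.34 in MDAH and 4.95, 4.98, 4.58 and 3.94 in SKOV3 cells. The gap between its MDAH controls, 0.79, was wider than that between control 2 and either hairpin. ESPL1, the protease that cuts cohesin, measured 3.28, 3.72, 3.91 and 4.75 in MDAH and 4.08, 4.29, 4.19 and 4.27 in SKOV3 cells. Its MDAH change of 0.83 (SE 0.30, adjusted p = 0.170) was larger with sh-SFPQ#3 than with sh-SFPQ#2, and in SKOV3 cells its arrays overlapped. PTTG1, or securin, which holds ESPL1 inactive and had the brightest probe of the members, measured 6.87, 7.08, 7.40 and 7.52 in MDAH and 6.54, 6.37, 6.06 and 6.02 in SKOV3 cells.

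The 8 spindle motors and microtubule binders had medians of 0.38 in MDAH and -0.47 in SKOV3 cells. KIF2C, which shortens microtubules at the centromere, measured 4.75, 5.17, 5.54 and 5.72 in MDAH and 5.48, 5.50, 5.44 and 5.46 in SKOV3 cells. Its MDAH change was 0.67 (SE 0.18, adjusted p = 0.107), whereas its SKOV3 change of -0.04 was above 0 with quantile normalization. The other 7, among them the bipolar spindle motor KIF11, the spindle assembly factor TPX2 and the spindle pole protein ASPM, lay between -0.62 and -0.33 in SKOV3 cells.

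For cytokinesis, KIF20A, which brings regulators to the spindle midzone, measured 2.35, 2.81, 2.90 and 3.19 in MDAH and 2.40, 2.12, 1.44 and 1.40 in SKOV3 cells. KIF23, the motor of the central spindle, measured 4.05, 4.35, 4.63 and 4.90 in MDAH and 5.03, 4.85, 4.78 and 4.74 in SKOV3 cells. KIF20A thus differed more in SKOV3 cells, by -0.84 (SE 0.21, adjusted p = 0.117), and KIF23 more in MDAH cells, by 0.57 (SE 0.18, adjusted p = 0.134). Of the chromosome structure genes, MKI67, the proliferation antigen Ki-67, measured 0.74, 0.96, 0.93 and 1.04 in MDAH and 3.26, 3.05, 2.80 and 2.36 in SKOV3 cells. TOP2A, which untangles sister chromatids, had log2 changes of 0.48 and -0.28.

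The question of whether the lines differed in this response was tested as the MDAH change minus the SKOV3 change. This difference was above 0 for all 40 genes, also in each of the alternative processings that gave it, with a median of 0.80 beside 0.12 over all genes tested. It was largest for PLK1 at 1.498 (SE 0.30, adjusted p = 0.165), CDC20 at 1.46 (SE 0.43, adjusted p = 0.256) and KIF20A at 1.30 (SE 0.30, adjusted p = 0.191). CENPA had the smallest adjusted p, 0.114, at 1.29 (SE 0.22). None of the 40 passed an adjusted p of 0.05 in limma, where 0.0965% of all genes did. At an unadjusted p under 0.05 there were 35 of the 40, beside 14.9% of all genes, and the other 5 were CCNB2, CDC25B, AURKB, BUB3 and ESPL1. For 31 of the 40 genes the silenced arrays lay above both controls in MDAH cells and also below both in SKOV3 cells. The same held for 8.38% of all genes tested. With quantile normalization it was 21 of the 40, with no share of all genes counted there. Across the 40 genes the changes in the lines had a Pearson correlation of 0.36, a description across genes that all share the same 8 arrays.

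**Figure D2:**
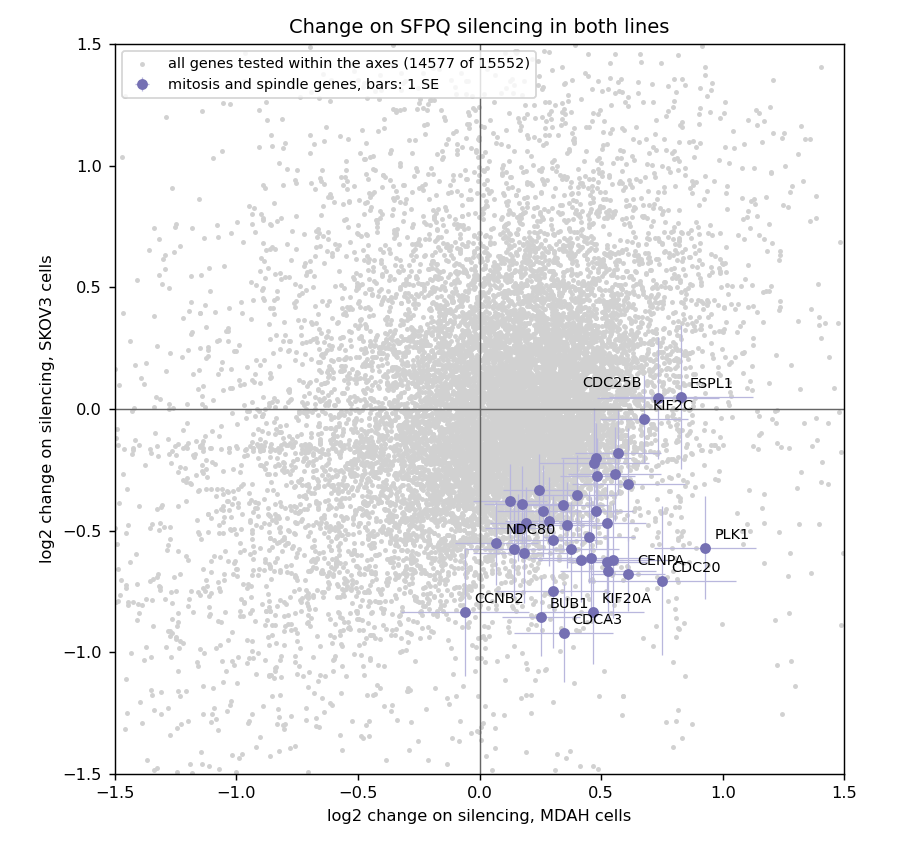
Log2 change on SFPQ silencing in MDAH cells (x axis) against SKOV3 cells (y axis) for the 40 mitotic genes (purple, with bars of 1 SE) and the 14577 of 15552 tested genes that lie within the axes (grey). The mitotic genes lie to the right of 0 in MDAH and under 0 in SKOV3 cells, apart from CCNB2, CDC25B and ESPL1; with quantile normalization BUB3, NDC80 and KIF2C are also exceptions.

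The MDAH controls did not agree for these genes, and the size of the MDAH change depended on which control was used. Control 2 was higher than control 1 for 38 of the 40 genes, by a median of 0.30, beside 0.04 over all genes tested; in SKOV3 cells it was higher for 13, with a median of -0.07. Against MDAH control 1 the median of the 40 genes was 0.55 on sh-SFPQ#2 and 0.58 on sh-SFPQ#3. Against control 2 it was 0.22 and 0.28, beside 0.05 and 0.09 over all genes tested. With quantile normalization the medians against control 2 were 0.15 and 0.18, beside a gap between the controls of 0.24, and under median centring 0.42 and 0.28, beside 0.33. Both silenced arrays lay above control 2 for 34 of the 40 genes, and the share of all genes that did was not counted. Without MDAH control 1 the median MDAH change of the members was 0.25. In SKOV3 cells the 4 pairings gave medians between -0.53 and -0.41. The part of the sample type in the gap between the MDAH controls was not tested.

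**Figure D3:**
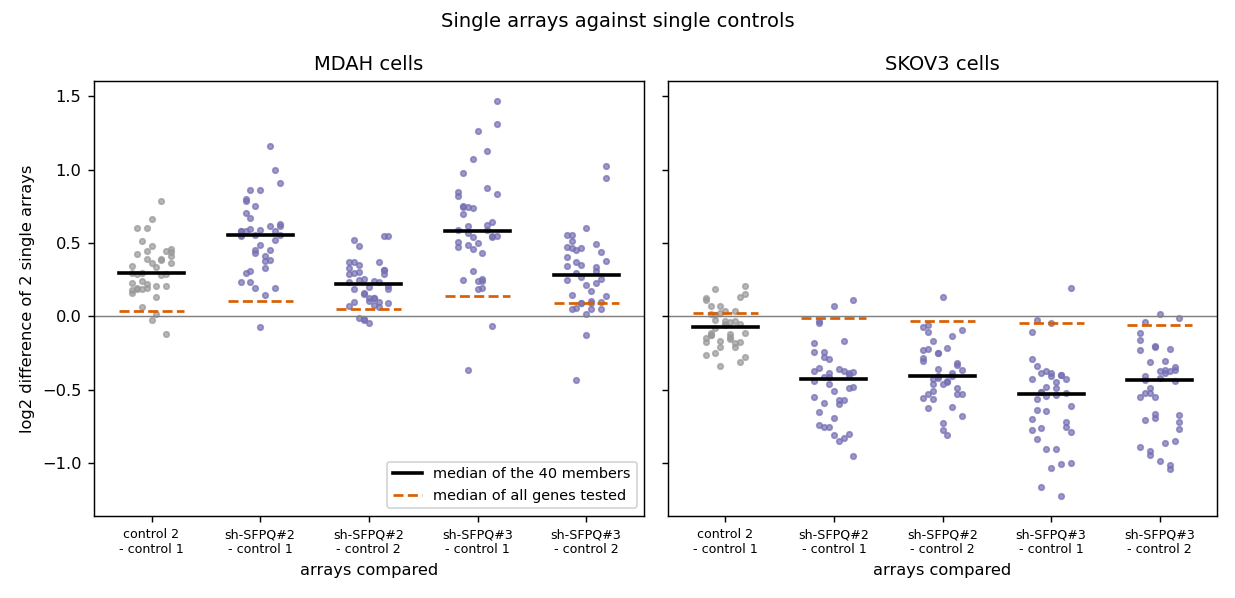
Log2 difference between 2 single arrays (y axis) for each of the 40 genes (points), for the pairs of arrays named on the x axis, in MDAH cells on the left and SKOV3 cells on the right. Black bars are medians of the 40 genes and dashed bars medians of all genes tested; the gap between the MDAH controls has a median of 0.30, and sh-SFPQ#2 and sh-SFPQ#3 lie 0.22 and 0.28 above control 2 (0.42 and 0.28, beside a gap of 0.33, under median centring).

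Averaged over both lines the opposite changes nearly cancelled. The median was -0.06, with 14 genes above and 26 below 0, and without MDAH control 2 it was 0.02. ESPL1 at 0.44, CDC25B at 0.39, KIF2C at 0.32 and KIF23 at 0.19 had the highest averages, and CCNB2 at -0.45, BUB1 at -0.30, CDCA3 at -0.29 and NDC80 at -0.24 the lowest. None of the 40 passed an adjusted p of 0.05 in limma, where 5.66% of all genes did. At an unadjusted p under 0.05 there were 3 of the 40 (CCNB2, BUB1 and KIF2C), beside 4107 of the 15552 genes tested. The smallest adjusted p was 0.154, for BUB1.

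From sh-SFPQ#2 to sh-SFPQ#3 the level was higher for 24 and lower for 16 of the 40 genes in MDAH cells, with a median of 0.08, and higher for 14 and lower for 26 in SKOV3 cells, with a median of -0.09. The change from sh-SFPQ#2 to sh-SFPQ#3, averaged over the lines in the fit with a block for the replicate number, had a median of 0.005 over the 40 genes. The largest gaps were those of CCNB2 at -0.55 (SE 0.16, adjusted p = 0.203), ESPL1 at 0.46 (SE 0.23, adjusted p = 0.369) and INCENP at -0.39 (SE 0.16, adjusted p = 0.305). CCNB2 was lower with sh-SFPQ#3 in both lines, by 0.68 in MDAH and 0.41 in SKOV3 cells. No member passed an adjusted p of 0.05 in limma, where 0.720% of all genes did. At an unadjusted p under 0.05 there was 1 of the 40, CCNB2, beside 2768 of the 15552 genes tested.

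Before silencing, 23 of the 40 genes differed between the lines at an adjusted p under 0.05 in limma, a share equal to the 57.5% of all genes tested that did. In unsilenced MDAH cells 19 of the 40 were lower than in unsilenced SKOV3 cells at this threshold, beside 30.7% of all genes, and 4 were higher, beside 26.8%. CDC25B was at 0.200 times its SKOV3 level (log2 difference -2.32, SE 0.25, adjusted p = 0.000337) and MKI67 at 0.201 times (-2.31, SE 0.20, adjusted p = 0.000127). CCNA2, the cyclin of S and G2 phase, at -1.69, BIRC5 at -1.44 and CDC20 at -1.36 followed. The spindle protein HMMR was at 2.69 times its SKOV3 level (1.43, SE 0.21, limma adjusted p = 0.00123). NEK2 at 0.59, PTTG1 at 0.52 and BUB1 at 0.46 were the other genes higher in MDAH cells at an adjusted p under 0.05. The median over the 40 genes was -0.53 in the controls, beside -0.05 over all genes tested. Below 0 were 31 of the 40, beside 8120 of the 15552 genes tested. With quantile normalization 24 of the 40 were below 0, and the number of all genes was not counted there. Among the silenced arrays the same gap between the lines had a median of 0.30, with 13 below 0. The median log2 signal of the 40 genes was 3.25 and 3.66 on the MDAH controls and 3.87 and 4.01 on the silenced MDAH arrays. It was 4.17 and 4.18 on the SKOV3 controls and 3.93 and 3.65 on the silenced SKOV3 arrays, so that the silenced arrays of the lines lay closer together than the controls. These comparisons use the same control arrays as the changes on silencing.

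**Figure D4:**
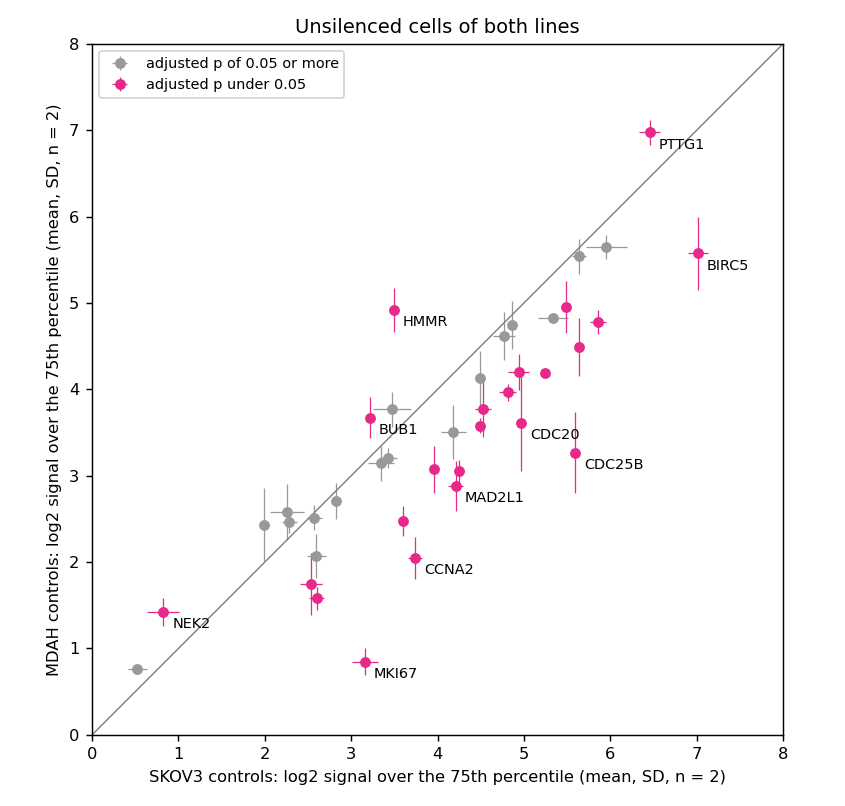
Mean log2 signal over the 75th percentile in unsilenced SKOV3 cells (x axis) and unsilenced MDAH cells (y axis) for the 40 genes, with bars of 1 SD of 2 arrays; pink marks an adjusted p under 0.05 in limma. Most points lie under the diagonal of equal signal, 31 of 40, beside 8120 of the 15552 genes tested. With quantile normalization it is 24 of 40, and the number of all genes was not counted there. HMMR lies farthest above the diagonal.

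For 10 of the 40 genes more than 1 probe was measured. The probes of ASPM, BUB3, CCNB1, CDK1, CENPF, KIF23, KIF4A, NEK2 and PLK1 had the same direction in each line. Those of MKI67 did not: in MDAH cells its brightest probe changed by 0.14 and the others by -0.33 and 0.44, while in SKOV3 cells the 3 gave -0.58, -0.98 and -0.34.

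Neighbouring groups of cell cycle genes are given beside the members. The 23 transcriptional regulators of mitotic genes had medians of 0.20 in MDAH and -0.10 in SKOV3 cells, and none passed an adjusted p of 0.05 in a silencing comparison. Among them FOXM1, an activator of G2 and M phase genes, had log2 changes of 0.21 (adjusted p = 0.486) and -0.12 (adjusted p = 0.731), and MYBL2, its partner on MuvB, 0.56 (adjusted p = 0.170) and -0.10 (adjusted p = 0.797). The 10 genes that brake mitotic entry, such as WEE1 and CDKN1A, had medians of 0.34 and 0.28, above 0 in both lines, with no gene past the threshold. Genes of the anaphase-promoting complex (15 tested) had medians of 0.06 and -0.11, and those of cohesin and condensin (20 tested) 0.20 and -0.21, again with no gene past the threshold.

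Among 33 other kinetochore and centromere genes the medians were 0.18 and -0.23, and 3 genes passed the threshold in the average over both lines, all downwards. CENPP fell by 1.81 (SE 0.39, limma adjusted p = 0.0498), MAD1L1, which anchors MAD2 at the kinetochore, by 1.76 (SE 0.33, adjusted p = 0.0365) and SPC25, a subunit of the NDC80 complex, by 0.63 (SE 0.12, adjusted p = 0.0353). SPC25 was lower on the silenced arrays in both lines, at 3.51, 3.67, 3.39 and 3.20 in MDAH and 3.62, 3.71, 2.84 and 2.57 in SKOV3 cells, and was named after its values were seen. MAD1L1 measured -0.20, 0.24, -1.16 and -2.42 in MDAH and 0.78, 1.25, -0.25 and -1.13 in SKOV3 cells. CENPP measured 0.46, 0.73, -0.58 and -2.27 in MDAH and 1.42, 1.59, 0.39 and -0.59 in SKOV3 cells. All 3 were lower on each silenced array than on both controls of its line.

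Among 39 other genes of the spindle, centrosome and cytokinesis the medians were 0.34 and -0.21, and HAUS3, a subunit of augmin, rose by 1.101 in the average (SE 0.19, limma adjusted p = 0.0304). It measured -2.01, -2.19, -0.97 and -0.66 in MDAH and -0.05, -0.84, 0.41 and 0.53 in SKOV3 cells, higher on each silenced array of a line than on its controls. The 36 genes of DNA replication and the G1/S transition had medians of 0.38 in MDAH and -0.06 in SKOV3 cells. In MDAH cells 34 of these 36 were above 0, and in SKOV3 cells 14. The cyclin CCNE1 rose by 0.58 in the average (SE 0.11, limma adjusted p = 0.0342), at 2.24, 2.20, 2.68 and 2.89 in MDAH and 3.21, 3.38, 3.91 and 3.87 in SKOV3 cells. POLA1, the catalytic subunit of the primase-bound polymerase, fell by 1.12 (SE 0.23, adjusted p = 0.0422), at 2.39, 2.89, 1.497 and 0.83 in MDAH and 2.75, 2.55, 2.20 and 1.56 in SKOV3 cells. The TTTGAA letters were present in a promoter of 1 of the 31 genes of this list that had an entry, and CCAAT in one of 18. No test of the members against these lists was made. Of the markers of other cell types COL1A1, a fibroblast collagen, rose by 1.18 in the average (SE 0.20, adjusted p = 0.0296), at -0.89, -0.58, 0.20 and 0.61 in MDAH and -2.16, -2.76, -1.500 and -0.96 in SKOV3 cells, and its part in the changes of the members was not tested.

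**Figure D5:**
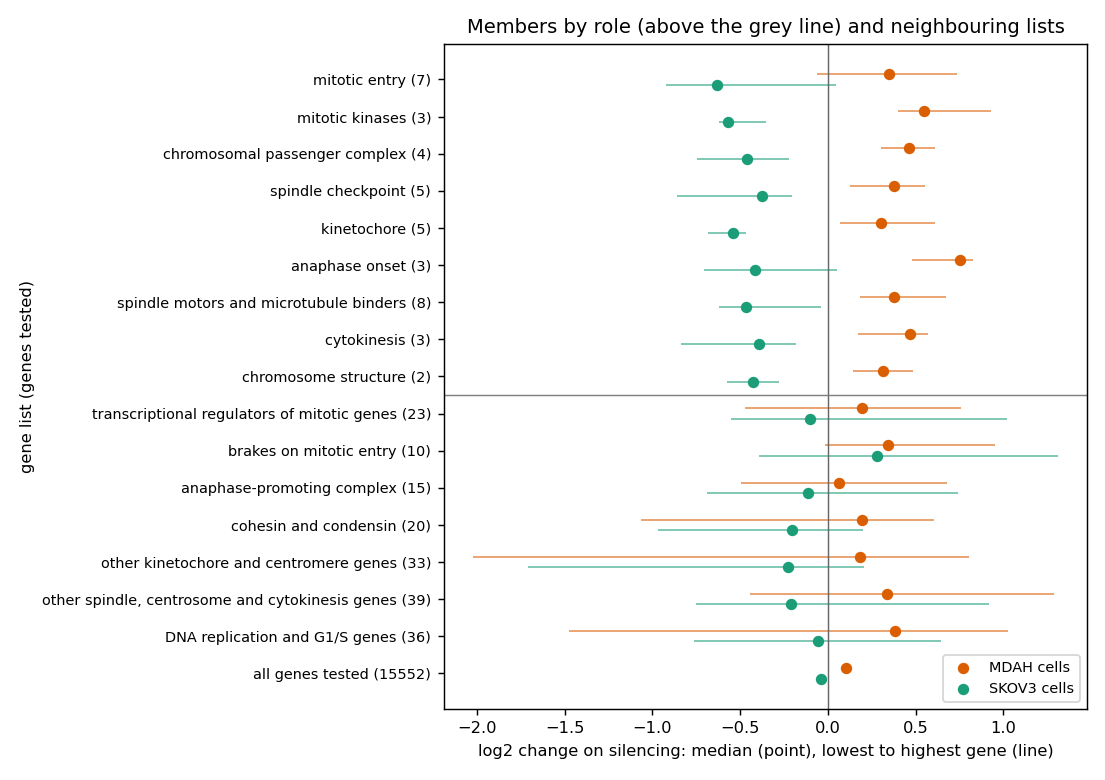
Median log2 change on silencing (points) and lowest to highest gene (lines; not drawn for all genes) in MDAH and SKOV3 cells (x axis), for the 40 members by role, above the grey line, and for neighbouring gene lists, with the number of genes tested in brackets (y axis). Each of the 9 roles has its MDAH median above 0 and its SKOV3 median below 0, also under each other scaling tried, while the brakes on mitotic entry have both medians above 0.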

How the data were processed

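Labelled RNA of 8 samples was hybridised to single-colour arrays of 62976 spots. Per the file headers, the authors' Feature Extraction software (11.5.1.1; 10.7.3.1 in the submitters' processing notes) wrote background-corrected signal intensity for each spot, with no scaling between arrays. They also deposited a table of log2 values, which matched quantile-normalized, gene-centred values (lowest correlation 0.99994) and was used as an alternative.

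Control spots and the 209 to 310 outlier spots of an array were dropped. Replicate spots were averaged as log2 intensity, from which the array's own 75th percentile was taken. Probes were named by RefSeq accession (28174 of 50599), and the brightest probe stood for a gene. A gene was tested when both arrays of a group were well above background. The 4 groups were fitted together in limma 3.58.1 (R 4.3.3), leaving 4 degrees of freedom for the spread, with Benjamini-Hochberg adjustment over all 15552 genes. The number of arrays limits the precision. The code was tested on simulated data.

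Genes named with values on every array were the members past the threshold, 4 highest and 4 lowest by average change, 3 highest and 3 lowest in each line, 3 with the largest difference between the lines and between hairpins, and 3 with the brightest and 3 with the dimmest probes; of other lists, at most 2 highest and 2 lowest past the threshold. Other genes given with values were chosen after their values were seen. The members and lists were chosen with earlier results of these data known. The hairpin number pairs the silenced arrays of the lines, and their deviations had a correlation of 0.36 over all genes; control numbers gave 0.08.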

Additional observations from a re-analysis of the deposited data

Results flagged for a closer look

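The median of the 40 mitotic genes changed by 0.80 more on the log2 scale in MDAH than in SKOV3 cells on silencing, and each silenced MDAH array was above each MDAH control by this median while each silenced SKOV3 array was below each SKOV3 control. The difference of this median itself was not tested. For 31 of the 40 genes the silenced arrays lay above both controls in MDAH cells and below both in SKOV3 cells, beside 8.38% of all genes tested. With quantile normalization it was 21 of the 40, and the share of all genes was not counted there. How far the lines differ in this count was not tested. Gene by gene the difference was tested in limma, and no member passed an adjusted p of 0.05, where 0.0965% of all genes did. At an unadjusted p under 0.05 there were 35 of the 40, beside 14.9% of all genes. With 2 arrays a group, no group was large enough to look for single outlying arrays.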

How the results depend on the processing

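The counts and medians of the 40 genes and the changes of the named genes were recomputed under other scalings, filters, probe rules, fits and without each array in turn. Centring each array on its median raised the median of all genes by more than 0.1, to 0.21 in MDAH cells and 0.26 for the difference, and the members lay 0.33 above it in MDAH cells either way. The SKOV3 median and the median difference were -0.415 and 0.588 with quantile normalization, -0.412 and 0.584 with the authors' deposited values, and -0.395 and 0.575 with normexp correction and quantile normalization. Members past the threshold numbered 1 in MDAH cells (PLK1), 2 in SKOV3 cells (BUB1 and CDCA3) and 1 in the average with normexp correction, and 1 in MDAH (PLK1) and 1 in SKOV3 cells (BUB1) with a trend in the spread. Fits without 1 array gave medians between 0.246 and 0.574 in MDAH cells, between -0.525 and -0.418 in SKOV3 cells, between -0.132 and 0.0186 for the average and between 0.667 and 0.994 for the difference. They put between 0 and 2 members past the threshold in MDAH cells, the 2 being PLK1 and ESPL1 without MDAH sh-SFPQ#2. Direction turned for genes near 0. In MDAH cells BUB3 was at -0.000293, -0.00132 and -0.0121 and NDC80 at -0.0548, -0.0548 and -0.0324 with quantile normalization, the deposited values and normexp correction, and in SKOV3 cells KIF2C was at 0.0712, 0.0775 and 0.0748. CCNB2 was at 0.0521 in MDAH cells with median centring. Without 1 array, MDAH changes lay between -0.00764 and 0.256 for BUB3, -0.400 and 0.280 for CCNB2 and -0.0609 and 0.199 for NDC80, and SKOV3 changes between -0.0532 and 0.153 for ESPL1 and -0.0167 and 0.103 for CDC25B. With the replicate number as a block, 0 members passed the threshold in MDAH cells (17 at an unadjusted p under 0.05), 0 in SKOV3 cells (23) and 0 for the difference (33), and 23 between the unsilenced lines, so the pairing changed none of the counts past the adjusted threshold. At an unadjusted p under 0.05 there were 16, 26 and 35 without the block, beside 23.1%, 19.5% and 14.9% of all genes. The cause of these shifts was not tested.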
